A study of Mus musculus with 768 samples.

Results

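The genes described here are 10 genes of the major histocompatibility complex (MHC) and of antigen presentation, read in single Schwann cells (SCs) of the adult mouse sciatic nerve. They were taken by name, H2-K1, H2-D1, B2m, H2-T23, Tap1, Tap2, Tapbp, H2-DMa, H2-DMb1 and Cd74, and all 10 were found among the 25700 genes counted. They were selected on their measured levels in these libraries, since class I genes and the class II chaperone H2-DMa had been seen to differ in opposite directions between myelinating and non-myelinating cells, so the levels of the members by class are given as a description, with no test. SCs were sorted as eYFP positive cells from P60 (postnatal day 60) mice, 1 per well, onto 2 plates of 384 wells, and were sequenced with Smart-Seq2, a full-length cDNA method without molecular identifiers. The mice were P0Cre-/+ : ReYFPTg/+ : βAct-DsRedTg/+ on a C57BL/6J background. P0Cre switched on the yellow reporter in the SC lineage, while DsRed was driven by a beta actin promoter in all cells. Each plate held a pool of male and female animals, other animals on each plate, and there was no treatment, no second genotype and no other age, so the plate is the replicate and the comparison lies between cell classes within a plate.

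MHC class I molecules display peptides from inside the cell to cytotoxic T cells. A heavy chain, such as those encoded by H2-K1 and H2-D1, pairs with beta-2 microglobulin (B2m), and the peptides are cut by the proteasome, carried into the endoplasmic reticulum by the Tap1 and Tap2 transporter and loaded with the help of tapasin (Tapbp). MHC class II molecules display peptides from endosomes and are found mainly on professional antigen presenting cells. Their chains are escorted by the invariant chain, Cd74, and exchange its remnant for peptide with the help of H2-DM, a heterodimer of H2-DMa and a beta chain such as H2-DMb1. Class I transcription is raised by interferons through short elements near the start of the genes and by the factor Nlrc5, and class II transcription by the factor Ciita.

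The starts of the class I genes are shown because these genes are the ones set against H2-DM between the cell classes. Of the 10 members, 8 had at least 1 window in the RefSeq table used here (GRCm38.p6), from 250 bases before the start to 50 after it, and 5 of these windows are printed 5′ to 3′. They surround the start that RefSeq gives, which need not be the outermost start of the GENCODE span given below. Capitals mark matches, on either strand, to GAANNGAAA and AAANNGAAA (interferon response elements), GGGATTCCC (a site of NF-kappa-B) and CCAAT, the CCAAT box. AAANNGAAA was added to the search after the windows had been read. The matches do not overlap each other in the windows printed.
H2-K1, chr17:34000298-34000597, minus strand: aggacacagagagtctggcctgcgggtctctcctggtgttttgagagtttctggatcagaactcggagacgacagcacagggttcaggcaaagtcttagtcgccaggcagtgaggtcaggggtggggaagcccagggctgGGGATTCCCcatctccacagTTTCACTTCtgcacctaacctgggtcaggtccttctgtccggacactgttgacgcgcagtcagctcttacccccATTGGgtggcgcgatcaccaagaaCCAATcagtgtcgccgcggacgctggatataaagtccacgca
H2-D1, chr17:35262844-35263143, plus strand: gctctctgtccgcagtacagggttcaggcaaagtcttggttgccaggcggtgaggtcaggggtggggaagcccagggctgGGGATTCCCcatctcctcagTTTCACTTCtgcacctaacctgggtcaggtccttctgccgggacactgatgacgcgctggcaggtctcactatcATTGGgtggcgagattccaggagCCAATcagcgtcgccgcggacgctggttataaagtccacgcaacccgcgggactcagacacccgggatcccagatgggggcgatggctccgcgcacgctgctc
B2m, chr2:122147437-122147736, plus strand: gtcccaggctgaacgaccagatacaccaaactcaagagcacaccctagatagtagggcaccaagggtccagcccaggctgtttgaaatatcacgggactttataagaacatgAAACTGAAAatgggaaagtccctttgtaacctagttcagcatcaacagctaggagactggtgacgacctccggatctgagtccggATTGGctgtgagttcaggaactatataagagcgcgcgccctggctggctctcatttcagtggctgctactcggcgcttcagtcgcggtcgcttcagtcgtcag
H2-T23, chr17:36032652-36032951, minus strand: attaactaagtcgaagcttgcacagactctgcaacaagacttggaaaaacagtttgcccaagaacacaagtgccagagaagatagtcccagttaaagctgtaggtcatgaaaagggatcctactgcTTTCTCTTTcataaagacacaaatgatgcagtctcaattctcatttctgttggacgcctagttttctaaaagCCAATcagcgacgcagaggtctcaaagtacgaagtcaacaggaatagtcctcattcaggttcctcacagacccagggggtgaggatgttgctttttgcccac
H2-DMb1, chr17:34152941-34153240, plus strand: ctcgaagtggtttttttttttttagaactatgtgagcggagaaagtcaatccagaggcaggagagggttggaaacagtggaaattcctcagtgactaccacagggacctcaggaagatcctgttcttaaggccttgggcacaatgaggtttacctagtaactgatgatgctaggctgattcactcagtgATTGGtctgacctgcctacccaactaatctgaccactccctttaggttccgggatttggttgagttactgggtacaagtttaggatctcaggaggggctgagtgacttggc
The H2-K1 and H2-D1 windows each held 1 match to GGGATTCCC and 1 to GAANNGAAA and 2 matches to CCAAT. Among 32817 windows of the same length genome-wide, 0.353% held GGGATTCCC, 7.52% held GAANNGAAA, 10.54% held AAANNGAAA and 37.4% held CCAAT. B2m and H2-T23 each held 1 match to AAANNGAAA, and H2-DMb1 had 1 match to CCAAT and none to the interferon elements. Of the 2 RefSeq windows of H2-DMa, not printed and inside the GENCODE span of the gene given below, 1 held a match to AAANNGAAA. These are matches of letters, and no binding was measured.

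The libraries held 74280540 reads in plate 1 and 209404659 in plate 2. At the study's minimum of 1500 detected genes, 340 cells of plate 1 and 334 of plate 2 were kept, with a median of 158689 reads and 3442 genes per cell in plate 1 and of 452484 reads and 2295 genes in plate 2. Clustering was repeated without the members, the related gene lists and 19 immune markers, and gave 5 clusters. These were called mSC-like (myelinating) or nm(R)SC-like (written Remak-like from here on, after the non-myelinating SCs of Remak bundles) from fixed markers. Plate 1 had 159 mSC-like and 181 Remak-like cells, and plate 2 had 79 and 255. The SC markers Sox10 and S100b were both above 10 CPM (reads of a gene per 1000000 reads of its sum) in each of the 4 sums of reads, 1 per plate and class, with Sox10 between 234 and 565 CPM. Immune markers were low: the 19 of them together came to 13.1 to 27.1 CPM, Ptprc (CD45, on all leukocytes) was at 0 in 3 sums and at 0.00659 CPM in the Remak-like cells of plate 2, and Adgre1, Cd52, Cd53 and C1qb were at 0 in all 4. Lyz2, a lysozyme gene of myeloid cells, was at 8.02 and 15.25 CPM in Remak-like cells (plates 1 and 2) against 0.0869 and 0 CPM in mSC-like cells, and Csf1r, a macrophage receptor, was between 5.03 and 19.4 CPM with its highest level in mSC-like cells of plate 2. Summed markers of other nerve cells also differed between classes. The 9 endothelial markers came to 135 and 55.6 CPM in mSC-like cells (plates 1 and 2) against 15.5 and 1.99 CPM in Remak-like cells, with Cdh5 at 0 in all 4 sums, the 6 pericyte and smooth muscle markers to 115 and 57.5 against 5.73 and 15.97 CPM, and the 8 fibroblast-like markers to 508.3 and 337.6 against 2323 and 833 CPM, with Pdgfra at most at 0.177 CPM. Their part in the results below was not tested.

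Class I heavy chains were read at higher levels in Remak-like than in mSC-like cells of both plates. H2-D1 (chromosome 17, 35262730 to 35267499, plus strand, GENCODE M21 on GRCm38), a classical class I heavy chain, had a level of 325 CPM (mSC-like) against 2181 CPM (Remak-like) in plate 1. In plate 2 the level was 150 against 4182 CPM. The Remak-like level was thus 6.71-fold higher in plate 1 and 27.9-fold higher in plate 2. In mSC-like cells 33.2% of the H2-D1 reads of plate 1 and 32.8% of those of plate 2 came from 1 cell. H2-K1 (chromosome 17, 33996017 to 34000347, minus strand), the other classical heavy chain, was at 213 and 1030 CPM in plate 1 and at 304 and 1607 CPM in plate 2, in the order mSC-like and Remak-like. The fold was 4.83 and 5.28, so the plates were closer to each other for H2-K1 than for H2-D1. H2-T23 (chromosome 17, 36029773 to 36032855, minus strand), which encodes the non-classical heavy chain Qa-1, was at 7.73 against 129 CPM in plate 1 and at 0.106 against 163 CPM in plate 2, where the mSC-like level rests on 6 reads. The heavy chains are near copies of each other, and how reads that map to several of them were counted is not given in the sources used here, so the split of reads among H2-K1, H2-D1 and H2-T23 is uncertain.

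B2m (chromosome 2, 122147686 to 122153083, plus strand), the light chain shared by all class I molecules, lies outside the MHC and was the most strongly read member. Its level was 4190 against 8828 CPM in plate 1 and 1791 against 4499 CPM in plate 2, in the order mSC-like and Remak-like. The Remak-like cells were 2.11-fold and 2.51-fold higher, a smaller ratio than for any of the 3 heavy chains in either plate. The mSC-like sum of plate 1 was close to the Remak-like sum of plate 2, so the classes of B2m were separated within each plate and not across plates.

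The genes that load class I had the same direction. Tapbp, tapasin, was at 103 against 212 CPM in plate 1 and at 152 against 354 CPM in plate 2, so that Remak-like cells were 2.05-fold and 2.34-fold higher. Tap2 was at 10.17 against 76.4 CPM in plate 1 and at 66.9 against 153 CPM in plate 2, a fold of 7.52 and 2.29. Tap1, its partner in the peptide transporter, was at 9.35 against 30.0 CPM and at 14.5 against 23.99 CPM, a fold of 3.21 and 1.66 and thus the smallest difference of the members in plate 2. In mSC-like cells of plate 2, 1 cell gave 82.2% of the Tap1 reads and 52.0% of the Tap2 reads. Exons of Tap1 overlap Psmb9 and those of Tap2 overlap Gm15821 on the other strand, Tapbp overlaps Zbtb22 on the same strand, and the strand setting of the counting is not given, so the values of these 3 genes may include reads of a neighbour.

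The class II chaperone had the opposite direction. H2-DMa (chromosome 17, 34119541 to 34139101, plus strand) was at 314 against 4.64 CPM in plate 1 and at 313 against 7.54 CPM in plate 2, again mSC-like first. The mSC-like level was 67.7-fold higher in plate 1 and 41.5-fold higher in plate 2, and 55.5% of the reads in Remak-like cells of plate 2 came from 1 cell. H2-DMb1 (chromosome 17, 34153072 to 34160230, plus strand), the beta chain of the same heterodimer, was at 346 against 3.38 CPM and at 307 against 13.3 CPM. Its mSC-like level was 102-fold and 23.1-fold higher, with 55.2% of the mSC-like reads of plate 2 in 1 cell. For both genes each mSC-like sum was above each Remak-like sum. Cd74 (chromosome 18, 60803848 to 60812652, plus strand), the invariant chain, did not go with them: it was at 0 CPM in mSC-like cells of both plates and at 1.92 and 2.59 CPM in Remak-like cells, where 98.7% of the 76 reads of plate 1 and 100% of the 393 reads of plate 2 were in 1 cell.

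**Figure D1:**
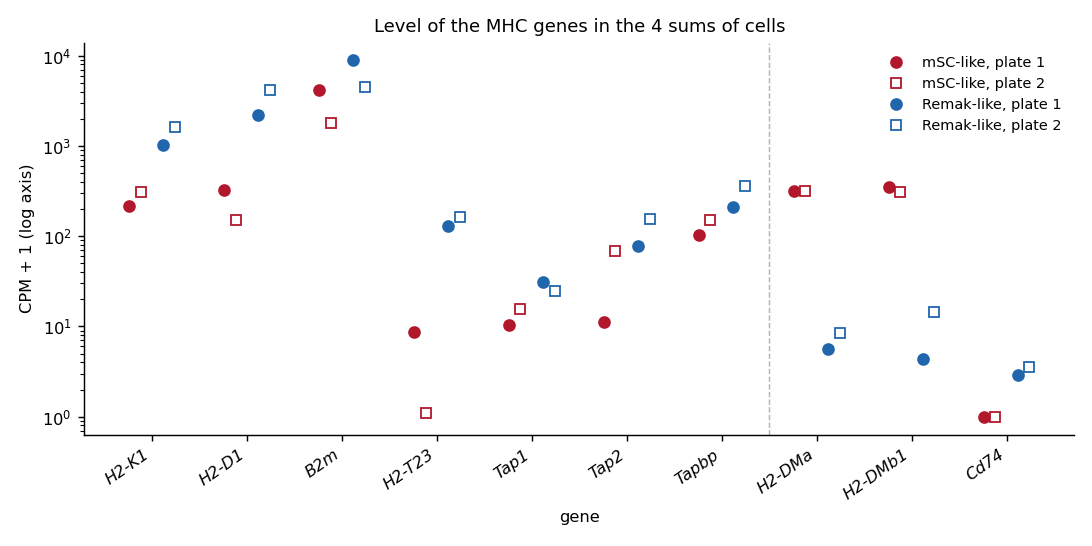
CPM + 1 on a log axis (vertical) for the 10 genes (horizontal), with 1 point per plate and class, red for mSC-like and blue for Remak-like cells, filled circles for plate 1 and open squares for plate 2. Left of the dashed line the class I and loading genes have both blue points above the red point of the same plate, and right of it H2-DMa and H2-DMb1 have red points from 307 to 346 CPM and blue points from 3.38 to 13.3 CPM.

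As log2 ratios of mSC-like over Remak-like cells, with a pseudocount of 1 CPM, H2-K1 was at -2.33 ± 0.09 (SD over plates, n = 2), H2-D1 at -3.77 ± 1.45, B2m at -1.20 ± 0.18 and H2-T23 at -5.56 ± 2.34. Tap1 was at -1.14 ± 0.63, Tap2 at -1.99 ± 1.14 and Tapbp at -1.13 ± 0.13. All 7 were below 0 in both plates. For comparison, 60.6% of 9981 genes at 10 CPM or more were below 0 in plate 1 (median -0.27) and 55.0% of 9264 in plate 2 (median -0.16). H2-DMa was at 5.50 ± 0.43 and H2-DMb1 at 5.37 ± 1.33. The median ratio of H2-K1, H2-D1, B2m and H2-T23 minus the ratio of H2-DMa was -8.31 in plate 1 and -8.79 in plate 2, on average -8.55 ± 0.34. This gap is what the genes were chosen for and carries no test. It was -6.90 with classes built from all genes, the smallest gap among the alternatives tried, and -8.56 without the 3 cells that had reads of several immune markers.

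**Figure D2:**
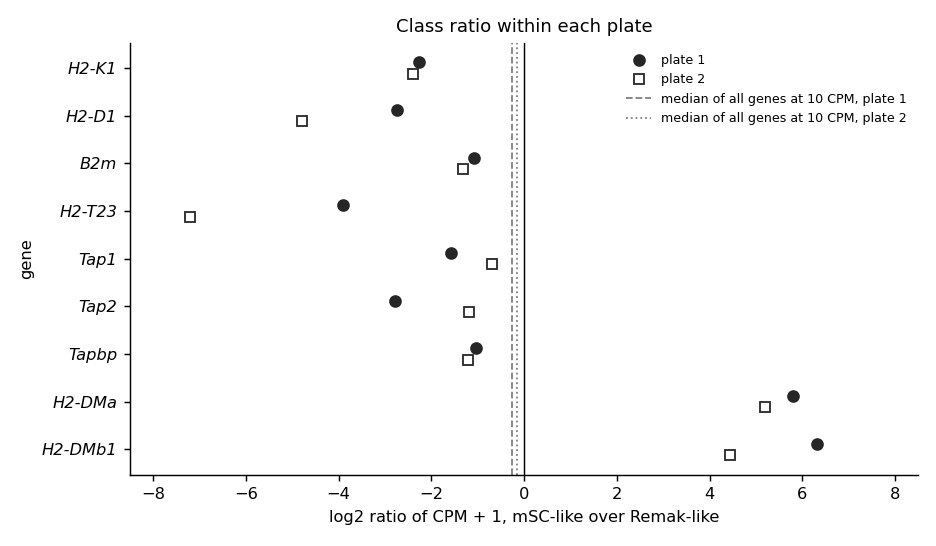
Log2 ratio of CPM + 1, mSC-like over Remak-like (horizontal), for 9 of the genes (vertical), with filled circles for plate 1, open squares for plate 2 and grey lines at the median of all genes at 10 CPM or more in each plate. The 7 class I and loading genes lie left of both grey lines, from -7.21 to -0.69, and H2-DMa and H2-DMb1 lie between 4.43 and 6.31.

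Per kilobase of exon, the only scale on which genes are set against each other here, B2m was highest in all 4 sums, from 2082 to 10260 CPM per kb. In Remak-like cells the order after B2m was H2-D1 (846 and 1622 CPM per kb in plates 1 and 2), H2-K1 (351 and 547), Tapbp (58.4 and 97.7), H2-T23 (44.8 and 56.4) and Tap2 (20.2 and 40.4) in both plates. The ranges of Tapbp and H2-T23 over the plates nearly met. Tap1, H2-DMb1, H2-DMa and Cd74 were at most at 7.91 CPM per kb, and Tap1 and H2-DMb1 changed places between the plates. In mSC-like cells H2-DMb1 came next to B2m, with 206 and 183 CPM per kb. H2-DMa had 91.1 and 90.6, between or beside the heavy chains, since H2-D1 had 126 and 58.2 and H2-K1 72.6 and 104. The order of H2-D1, H2-DMa and H2-K1 was reversed between the plates and these 3 were not separated by the spread between plates. Thus a class II chaperone was read at about the level of the classical class I chains in mSC-like sums, and far under them in Remak-like sums. The mSC-like sums join clusters that differed in H2-DMa and, in the opposite order, in H2-D1, as given below, so the likeness holds for the sums only.

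To compare shares of cells, each cell with at least 100000 reads was thinned to that number, which left 106 mSC-like and 117 Remak-like cells in plate 1 and 76 and 237 in plate 2. A gene counted as read in a cell at 5 or more reads. Intervals are exact binomial 95% intervals and cover counting error only, and a share of 0 is given with its exact upper limit. H2-D1 was read in 35 of 106 mSC-like cells (33.0%, 24.2 to 42.8) and 108 of 117 Remak-like cells (92.3%, 85.9 to 96.4) of plate 1. In plate 2 it was read in 11 of 76 (14.5%, 7.45 to 24.4) and 203 of 237 (85.7%, 80.5 to 89.9). H2-K1 was read in 34.0% and 79.5% of the cells of plate 1 and in 22.4% and 71.3% of plate 2, in the order mSC-like and Remak-like. At least 1 of these 2 heavy chains was read in 58 of 106 mSC-like and 113 of 117 Remak-like cells of plate 1, and in 24 of 76 and 219 of 237 of plate 2. At a limit of 1 read the mSC-like numbers were 97 of 106 and 34 of 76, so the share of mSC-like cells with heavy chain reads depended on the limit and the plate. B2m was read in 100% of both classes in plate 1 and in 96.1% and 97.5% in plate 2, so the classes differed in the level of B2m and hardly in its share of cells. Its median was 322 against 792 thinned reads per cell in plate 1 and 182 against 400 in plate 2.

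Other class I members were read in fewer cells. H2-T23 was read in 2 of 106 mSC-like and 30 of 117 Remak-like cells of plate 1. In plate 2 it was read in 0 of 76, with an interval of up to 4.74%, and in 43 of 237. Tapbp was read in 38.7% against 59.8% of cells in plate 1 and 21.1% against 45.6% in plate 2. Tap2 was read in 5.66% against 32.5% and in 3.95% against 23.2%. Tap1 shares were low in all 4 groups, 3.77% and 11.97% in plate 1 and 2.63% and 5.49% in plate 2, with intervals that overlapped between the classes of each plate.

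H2-DMa was read in 47 of 106 mSC-like cells of plate 1 (44.3%, 34.7 to 54.3) and in 13 of 76 of plate 2 (17.1%, 9.43 to 27.5). In Remak-like cells it was read in 2 of 117 (1.71%, 0.208 to 6.04) and 2 of 237 (0.844%, 0.102 to 3.02). At this limit H2-DMa was therefore read in some mSC-like cells and not in all. A count under the limit does not show that a cell lacked the transcript. At 1 read or more, 25 of the 117 Remak-like cells of plate 1 but only 2 of the 237 of plate 2 had H2-DMa, so low counts in cells of the other class were more frequent in plate 1. H2-DMb1 was read in 45 and 10 of the mSC-like cells and in 1 and 4 of the Remak-like cells of plates 1 and 2. Both chains were read together in 36 mSC-like cells of plate 1 and in 6 of plate 2. Across the thinned mSC-like cells the reads of the chains had a Spearman rho of 0.64 in plate 1 (106 cells) and 0.42 in plate 2 (76 cells), as a description. H2-DMb2, a second beta chain gene close in sequence, was read in 13 and 2 mSC-like cells, each of which also had H2-DMb1, so the reads may have been split between these genes.

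Brd2, a chromatin reader, has exons that overlap those of H2-DMa on the other strand. It was read in 49 of 117 and 31 of 237 Remak-like cells, of which 1 and 0 also had H2-DMa, and in 33 of 106 and 14 of 76 mSC-like cells, of which 13 and 3 also had H2-DMa. At the limit of 5 reads, Brd2 was thus read in many cells in which H2-DMa was not. Whether reads were shared between these 2 genes was not tested. Cd74 was read in 0 of 106 and 0 of 76 mSC-like cells, with intervals of up to 3.42% and 4.74%, and in 1 Remak-like cell of each plate. Without the 3 cells that had 5 or more reads of 2 or more immune markers, the Cd74 ratio was -0.02 in place of -1.69.

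Of the mSC-like cells with H2-DMa, 10 of 47 in plate 1 and 0 of 13 in plate 2 also had H2-D1, and all 47 and all 13 had B2m. Over all thinned mSC-like cells, H2-D1 was read in 35 of 106 and 11 of 76, and the difference was not tested. The few Remak-like cells with H2-DMa had H2-D1 as well in 1 of 2 and 2 of 2 cases. H2-K1 and H2-D1 were read together in 88 and 153 Remak-like cells of plates 1 and 2, out of 93 and 169 with H2-K1. In mSC-like cells they were read together in 13 of 36 and 4 of 17. Spearman rho between H2-K1 and H2-D1 was 0.54 and 0.28 over the Remak-like cells of plates 1 and 2, against 0.15 and 0.11 over the mSC-like cells. Reads shared between near copies could enter these values and were not measured.

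**Figure D3:**
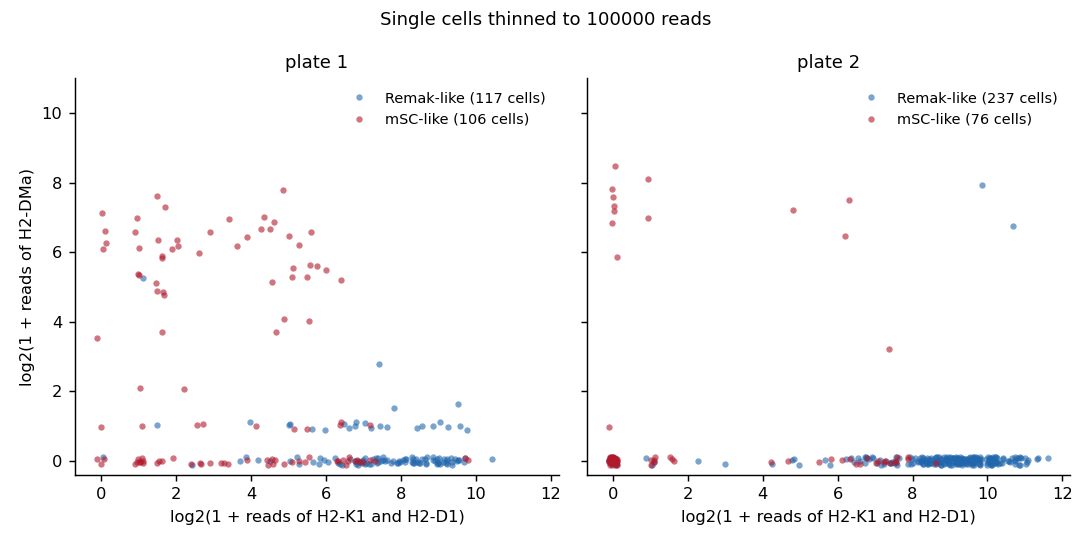
Each point is a cell thinned to 100000 reads, with log2(1 + reads of H2-K1 and H2-D1) on the horizontal and log2(1 + reads of H2-DMa) on the vertical axis, plate 1 left and plate 2 right, points shifted at random by up to 0.12 so that they can be seen. Most blue Remak-like cells lie along the bottom, to the right, though some of plate 2 lie at the bottom left, and 2 in each plate have 5 or more reads of H2-DMa. The red mSC-like cells with H2-DMa lie higher, in larger number in plate 1 (47 of 106 with 5 or more reads) than in plate 2 (13 of 76).

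The mSC-like class was made of 2 clusters, led by Pllp, a myelin protein gene (101 and 59 cells in plates 1 and 2), and by Mfap5, a microfibril gene (58 and 20 cells). H2-DMa was mainly read in the Mfap5-led cluster. There H2-DMa was at 673 and 1184 CPM in plates 1 and 2, and it was read in 36 of 45 and 13 of 20 thinned cells. In the Pllp-led cluster it was at 63.5 and 0.072 CPM and was read in 11 of 61 and 0 of 56 cells. H2-DMb1 was split in the same manner, with 774 and 1163 CPM against 46.0 and 0 CPM. In plate 2 the Pllp-led levels of H2-DMa and H2-DMb1 were below the Remak-like sums of 7.54 and 13.3 CPM. In plate 1 they were above the Remak-like sums of 4.64 and 3.38 CPM. The higher level of the mSC-like sums in plate 2 thus came from the Mfap5-led cluster. Of the thinned mSC-like cells with H2-DMa, 44 of 47 in plate 1 and 12 of 13 in plate 2 also had Mfap5. Mfap5 itself took part in the clustering and the members did not, and a cluster against the rest is a description with no test.

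H2-D1 had the opposite order over these clusters. In the Pllp-led cluster it was at 504 and 204 CPM, and in the Mfap5-led cluster at 69.4 and 0.871 CPM in plates 1 and 2. It was read in 26 of 61 and 11 of 56 cells of the former and in 9 of 45 and 0 of 20 of the latter, where 0 of 20 has an interval of up to 16.8%. H2-K1 and B2m differed less, with 265 and 319 against 140 and 263 CPM for H2-K1 and 4993 and 1870 against 3041 and 1568 CPM for B2m. Tap2 was at 17.1 and 90.8 CPM in the Pllp-led cluster and at 0.282 and 0.067 CPM in the Mfap5-led cluster. Tapbp did not follow, with 111 and 119 against 92.6 and 241 CPM.

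The Remak-like class was made of 3 clusters, led by Apoe (72 and 138 cells), Ednrb (64 and 49 cells) and Aldh1a1 (45 and 68 cells). The 3 heavy chains were at their lowest in the Ednrb-led cluster. H2-D1 was at 1207 and 2099 CPM there, against 2367 and 4552 CPM in the Apoe-led and 3195 and 4501 CPM in the Aldh1a1-led cluster. H2-K1 was at 389 and 750 CPM in the Ednrb-led, 1326 and 1580 CPM in the Apoe-led and 1528 and 2042 CPM in the Aldh1a1-led cluster. B2m did not keep this order in plate 1, where it was at 7871 CPM in the Apoe-led, 7932 CPM in the Ednrb-led and 10860 CPM in the Aldh1a1-led cluster, and in plate 2 the 3 clusters lay close together, between 4395 and 4561 CPM. H2-T23 was at 67.9 and 56.0 CPM in the Ednrb-led cluster, at 198 and 110 CPM in the Apoe-led and at 138 and 302 CPM in the Aldh1a1-led cluster. H2-DMa stayed at or below 13.2 CPM and H2-DMb1 at or below 17.7 CPM in each of these clusters in both plates.

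**Figure D4:**
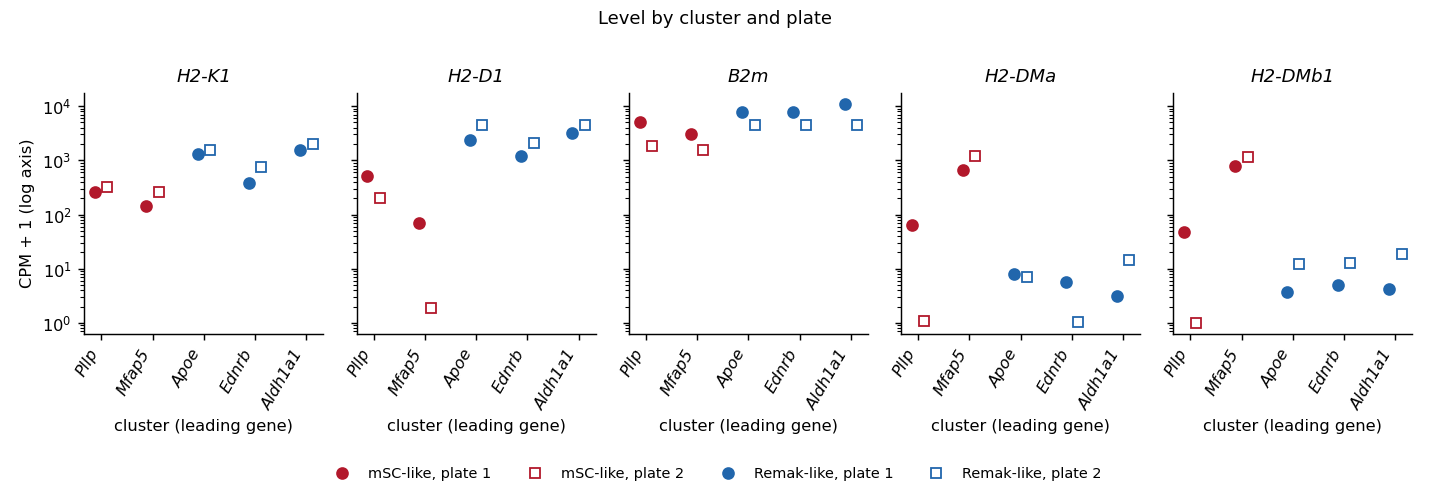
CPM + 1 on a log axis (vertical) by cluster, named by its leading gene (horizontal), for H2-K1, H2-D1, B2m, H2-DMa and H2-DMb1 in panels from left to right, red for mSC-like and blue for Remak-like clusters, filled circles for plate 1 and open squares for plate 2. H2-DMa and H2-DMb1 peak in the Mfap5-led cluster, at 673 to 1184 CPM, where H2-D1 has its lowest points of 69.4 and 0.871 CPM.

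Across the thinned Remak-like cells (117 and 237), genes were ranked by the Spearman rho of their reads with the summed reads of H2-K1, H2-D1 and B2m, taking the lower rho of the plates. Of 7545 genes at 10 CPM or more in both plates, the median was -0.06 and the 99th percentile 0.14, which marks the background. Gm7030, a gene of the H2-T region on chromosome 17, was first with 0.60 and 0.78 in plates 1 and 2, and shared reads with class I genes cannot be told apart from its own. Apoe, an apolipoprotein, followed with 0.47 and 0.39, then Tmem176a, a membrane protein gene, with 0.42 and 0.34, Ifitm3, an interferon-induced antiviral membrane protein, with 0.37 and 0.34, and Rarres2, the gene of the attractant chemerin, with 0.51 and 0.32. Tmem176a and Rarres2 have exons that overlap Tmem176b and Lrrc61 on the other strand. Among the members, H2-T23 ranked 25 (0.37 and 0.20), Tapbp 126 (0.23 and 0.11), Tap2 244 (0.16 and 0.08) and Tap1 758 (0.03 and 0.03). The same cells also formed the clusters above, so a shared order of cells enters every rho.

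The rest of the pathway was taken as 4 lists of 103 genes in all, of which 73 passed the filter on low counts and were tested. The sums of the 4 plate and class groups were compared with edgeR's quasi-likelihood test, plate as a block, with Benjamini-Hochberg adjustment over 13230 genes. None of the 73 was called higher in mSC-like cells, where 1.75% of all genes tested were called, and 2 were called higher in Remak-like cells, where 1.47% were called (3.21% in either direction). At an unadjusted p under 0.05 there were 27 of the 73, and 1634 of all genes tested. DESeq2 on the same sums called 26 of the 73, of which 25 were higher in Remak-like cells. It called 1551 of all 13230 genes. The fitted log2 ratio was negative (higher in Remak-like) for 62 of 73 list genes, with a median of -1.66, and for 7009 of 13230 genes tested, with a median of -0.09. Few genes were thus called, while negative ratios were more frequent in the lists than over all genes. The median of -1.66 is the fitted ratio of Nlrc5, which was at most at 4.19 CPM in the 4 sums. With a pseudocount of 1 CPM, as used for the members, the medians of the 4 lists ran from -1.85 to -0.57. The lists were chosen with earlier results of these data known. Their heavy chain genes may also hold reads of the members, which was not tested.

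Psme1, a subunit of the interferon-inducible proteasome activator, was at 47.7 against 290 CPM in plate 1 and at 16.9 against 216 CPM in plate 2, mSC-like first. It was higher in Remak-like cells, with a log2 ratio from the fit of -2.95 ± 0.44 (SE) and an edgeR adjusted p of 0.0233. Here and below, the SE of a fitted ratio is derived as its absolute value over the square root of the test's F statistic. Its exons overlap Emc9 on the other strand. Gbp2, an interferon-induced guanylate binding protein, was at 8.78 against 92.4 CPM and at 10.41 against 199.8 CPM, and was higher in Remak-like cells, with -3.64 ± 0.50 (edgeR adjusted p = 0.0185). Neither call was made without the plate block (adjusted p = 0.0577 for Gbp2 and 0.0894 for Psme1) or at a minimum of 2500 genes per cell (0.216 and 0.0576), and Psme1 was not called with classes from all genes (0.0773). Over the alternatives the adjusted p ran from 2.48e-09 to 0.216 for Gbp2 and from 1.77e-07 to 0.0894 for Psme1, the lowest of each from DESeq2.

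Of the 15 tested genes of peptide supply and loading, 1 was called higher in Remak-like cells and 14 were not called, with a median of -0.94. The 3 immunoproteasome subunits, which replace the constitutive ones under interferon, all had negative ratios. Psmb8 was at 74.5 against 223 CPM in plate 1 and at 24.3 against 414 CPM in plate 2 (-2.64 ± 0.68, edgeR adjusted p = 0.138). Psmb10 was at 51.5 against 160 CPM and at 35.4 against 264 CPM (-2.07 ± 0.46, edgeR adjusted p = 0.0850). Psmb9, which overlaps Tap1 on the other strand, was at 38.8 against 40.8 CPM in plate 1 and at 0 against 34.1 CPM in plate 2 (-4.73 ± 4.30, edgeR adjusted p = 0.821). None of these 3 passed the edgeR test as fitted, but with other processing Psmb8 was called in 7 of 10 alternatives (adjusted p from 9.37e-05 to 0.155), Psmb10 in 3 (0.000939 to 0.1501) and Psmb9 in 1, DESeq2 (0.003997 to 0.996). Nlrc5, the activator of class I transcription, was at 2.09 against 4.19 CPM and at 0.0353 against 0.257 CPM, with an edgeR adjusted p of 0.927.

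Of the 15 tested class I heavy chain and class I-like genes, none was called, 5 had an unadjusted p under 0.05, 14 had negative ratios and the median was -3.69. This median is the fitted ratio of H2-Bl, which was below 0.5 CPM in all 4 sums, and 4 of the 15 genes were below 10 CPM in all of them. With a pseudocount of 1 CPM, as used for the members, the list median was -1.85. Reads of H2-K1 and H2-D1 may also have been counted in heavy chain genes of this list that are close to them in sequence. This was not tested, so these ratios are not separate from those of the members. Of the 11 tested class II and endosomal genes, none was called, 5 had an unadjusted p under 0.05, 9 had negative ratios and the median was -1.11. H2-Aa, a class II alpha chain, was at 0.0869 against 7.21 CPM in plate 1 and at 0 against 6.74 CPM in plate 2 (edgeR adjusted p = 0.378). H2-Ab1, its beta chain, was at 5.995 against 5.60 CPM and at 0.0353 against 72.9 CPM (edgeR adjusted p = 0.827). H2-Eb1, a further beta chain, was at 0.0290 against 7.39 CPM in plate 1 and at 41.0 against 10.25 CPM in plate 2, so that the plates differed in direction (edgeR adjusted p = 0.950). Class II chains were read in few cells: H2-Aa in 3 of 117 and 4 of 237 Remak-like cells, H2-Ab1 in 3 and 13, and H2-Eb1 in 2 and 5. At the same limit of 5 reads in thinned cells, 0 mSC-like cells had H2-Aa, 1 had H2-Ab1 and 1 had H2-Eb1. Ciita, the class II activator, was below the filter, at 0 CPM in 3 sums and at 0.679 CPM in Remak-like cells of plate 2. The mSC-like sums that held both chains of H2-DM thus had no Cd74 and no Ciita reads, and class II chains at 5 or more reads in 1 thinned cell of each plate.

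Of the 32 tested interferon receptor, signal and response genes, 1 was called higher in Remak-like cells (Gbp2) and 31 were not called, with a median of -1.19 and 26 negative ratios. Among these, 13 had an unadjusted p under 0.05. Ptprc was read in none of the thinned cells of any group. Cd68, a macrophage marker, was read in 1 of 117 and 2 of 237 Remak-like cells and in no thinned mSC-like cell.

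**Figure D5:**
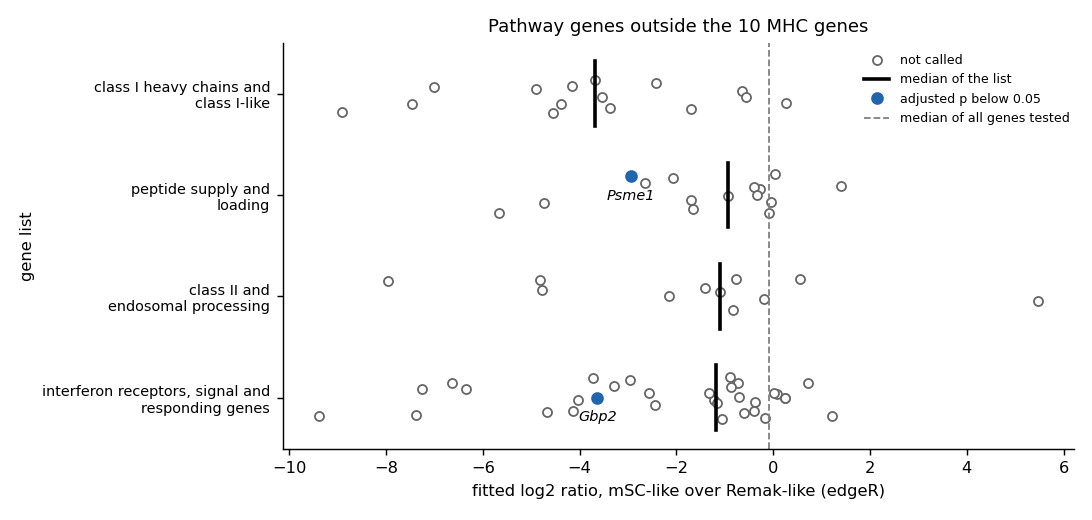
Fitted log2 ratio from edgeR, mSC-like over Remak-like (horizontal), for the 73 tested pathway genes outside the 10 members, in rows by list, with open circles for genes not called, filled circles for those with an adjusted p under 0.05 and black bars at the list medians. Most circles lie left of the dashed line at the median of all genes tested (-0.09), the list medians run from -3.69 to -0.94, and Psme1 and Gbp2 alone are filled.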

How the data were processed

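The authors deposited raw read counts per gene and cell, 25700 genes by 768 cells, and all columns matched a cell's title. The submitters' processing notes name bcl2fastq, STAR 2.6.1c, featureCounts and GRCm38.p5. The study's methods name a human build, while the gene identifiers are those of mouse. Strand and multi-mapping settings were not given in the sources used here. Symbols and coordinates come from GENCODE M21 (25664 identifiers found).

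The members and gene lists were chosen with earlier results of these data known, and classes were rebuilt since no cell annotation was used. Cells with 1500 or more genes were clustered in Seurat 5.3.0 (R 4.3.3) after the study (counts scaled to 100000, 12 dimensions of canonical correlation between plates, resolution 0.5). A panel of 132 genes was left out, made of the members, the lists and the 19 immune markers. A cluster took the class whose fixed markers had the higher mean standardised level, with at least 3 of them at 50 CPM. Clusters of few reads per cell were left unnamed if none of their class's markers was among their leading genes. So were clusters with more leading markers of the other class. The mSC-like markers were Cldn19, Drp2, Egr2, Fa2h, Gjb1, Mag, Mal, Pllp, Pmp22, Prx and Ugt8a, and those of nm(R)SC-like cells (Remak-like) Cdh2, Chl1, Ednrb, Emp1, Gap43, Gfap, Itga1, Scn7a and Sema3e. These were not tested. The other genes were split at random into 2 parts, and each part was tested between classes built from the other. The classes from the parts matched the panel-free ones in 95.0% of 674 and 89.2% of 637 cells. The smaller number left out an unnamed cluster of 37 cells. Doublets were not called, as the sort was set to 1 cell per well, and whether some wells held more was not tested.

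Counts were summed per plate and class and tested with edgeR 4.0.16 (quasi-likelihood, TMM, plate as a block, filterByExpr at its minimum count of 10, Benjamini-Hochberg limit 0.05), which left 1 residual degree of freedom. The block pairs classes that came from the same animals on the same plate. The p-values rest on the spread between these 2 plates only, with the spread of each gene drawn towards that of the other genes. DESeq2 1.42.0 was an alternative. The same fit was also run on simulated counts, with an outcome that is not given here. Shares of cells used Python 3.11.15 and scipy 1.17.1. Named by rule were the members, up to 5 called genes per list and direction with the same sign in both plates and at least 10 CPM, Nlrc5, Psmb8, Psmb9, Psmb10, Ciita, H2-Aa, H2-Ab1, H2-Eb1, Ptprc, Cd68, and the 5 genes most like class I. Alternatives were another test, scaling, low-count filter, class build, gene minimum, plate integration, thinning, pseudocount and left-out cells or plates.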

Additional observations from a re-analysis of the deposited data

How the results depend on the processing

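None of the 80 recomputed ratios of the members changed sign, 24 moved by more than the spread between the plates and 56 did not. The median ratio of the 7 class I and loading genes, -1.80, moved to -2.54 at a minimum of 2500 genes per cell and ran from -2.27 to -1.33 over the single plates. The class I ratio minus that of H2-DMa moved to -7.76 at a minimum of 1000 genes, -9.81 at 2500, -9.03 without plate integration, -8.20 with thinned cells, -9.37 without the top cell of each gene, -6.90 with classes from all genes and -7.88 with a pseudocount of 5 CPM, and ran from -8.79 to -8.31 over the single plates. The share of mSC-like cells with H2-DMa, averaged over the plates, was 30.7% and ran from 17.1% to 44.3% over the single plates. Of the 5 genes most like class I, none was among the first 5 in mSC-like cells, and 3 to 4 remained with either plate alone.

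The count of pathway genes called, 2, became 26 with DESeq2 (25 of them higher in Remak-like cells), 4 with RLE factors, 13 without a filter on low counts, 6 without plate integration and 14 with thinned cells. Without the replicate block it was 0, and the fitted H2-Eb1 ratio turned to 1.49. At a minimum of 2500 genes per cell 3 were called, none of them Gbp2 or Psme1. Over all genes the count of 425 became 1551 with DESeq2 and 400 with RLE factors. It was 630 of 16726 genes tested without a filter on low counts and 519 of 12390 with thinned cells. Without the block it was 94, with classes from all genes 161, at 2500 genes 202 and without integration 212. The cause of these moves was not tested. With 2 plates and 1 residual degree of freedom, a ratio that was not called cannot be read as no difference. Reads and not molecules were counted, so genes at a few CPM rest on few cells, as the share of reads in the top cell shows.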

Other observations

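The genes named here were chosen after their values were seen, and none passed the edgeR test. Hfe, a class I-like regulator of iron uptake, was at 9.50 against 82.5 CPM in plate 1 and at 3.53 against 171 CPM in plate 2, in the order mSC-like and Remak-like (log2 ratio -4.16 ± 0.80, edgeR adjusted p = 0.0520). H2-M3, a heavy chain that presents formylated peptides, was at 0.261 against 30.5 CPM and at 0 against 46.4 CPM (edgeR adjusted p = 0.113). Cxcl10, an interferon-induced chemokine, was at 6.49 against 177 CPM and at 0.106 against 73.3 CPM (edgeR adjusted p = 0.0626), and Ifit3, an interferon-induced antiviral gene, at 7.41 against 153 CPM and at 0.141 against 354 CPM (edgeR adjusted p = 0.146). All 4 were higher in the Remak-like sum of both plates. H2-DMb2 went the other way, as H2-DMb1 did, at 15.1 against 0.227 CPM and at 8.89 against 0.376 CPM (edgeR adjusted p = 0.339). The interferon receptor subunits Ifngr1 and Ifnar2 were read in both classes, at 70.7 against 144 CPM and 116 against 254 CPM for Ifngr1 and at 43.9 against 116 CPM and 68.3 against 168 CPM for Ifnar2, with edgeR adjusted p of 0.349 and 0.248.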
